A study of Homo sapiens with 6 samples.

Results

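Fibrinogen, plasminogen and coagulation genes were examined as a set of 9, namely FGA, FGB and FGG for the fibrinogen chains, F3, TFPI and THBD for the start and the restraint of clotting, and PLAT, PLAU and PLAUR for plasminogen activation. They were found by their exact symbols among the 31369 genes of the deposited count table, where all 9 have a row. The set was put together with the difference between the groups already known, so the values of these 9 genes are given as a description and no p-value is attached to them.

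HK-2 is an immortalized line from the proximal tubule of human kidney. Its RNA was sequenced in 3 control samples (NC) and 3 samples overexpressing *PPM1K* (OE). The genotype entry is WT for NC and PPM1K overexpress for OE, and all 6 samples share the treatment entry chronic kidney disease and the time entry Day 10. The titles instead name shControl and shPPM1K, the cell line entries run from HK-2 to HK-12 in steps of 2 while every cell type entry reads HK-2, and what the NC cells were transfected with is not given in the sources used here. The plasmid was delivered with a lipid reagent, its promoter is not given in those sources either, and all samples come from 1 cell line. *PPM1K*, which encodes a mitochondrial phosphatase that activates the breakdown of branched-chain amino acids, had 37, 19 and 53 counts in NC and 3294, 3531 and 2919 in OE, so the groups follow the genotype entries.

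Fibrinogen is built from paired alpha, beta and gamma chains and is made chiefly by the liver, where its genes answer to interleukin 6. Tissue factor (F3) starts clotting, TFPI blocks the complex it forms, and thrombin bound to thrombomodulin (THBD) turns from clotting to the activation of protein C. Urokinase (PLAU), held at the cell surface by its receptor PLAUR, and tissue-type activator (PLAT) cut plasminogen to plasmin, which dissolves fibrin and, in the kidney, also acts on matrix.

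Total counts per sample ran from 34635770 to 39850802. NC replicate 2 stood apart in that 26478 genes had a count there, against 22094 to 22913 in the other 5 samples, and values without it are given for some of the genes. Among 9 proximal tubule markers, LRP2, CUBN and AQP1 were close to absent, with at most 1, 6 and 5 counts in any sample. Of the 4 that were fitted, GGT1 and SLC5A2 were called lower, and SLC34A1 and ANPEP did not pass. GGT1 had 45, 60 and 38 counts in NC and 21, 21 and 29 in OE (log2 fold change −1.09, adjusted p = 0.0034 from edgeR). SLC5A2 had 22, 42 and 24 in NC and 12, 11 and 21 in OE (−1.08, adjusted p = 0.022 from edgeR). Its highest count was that of NC replicate 2, and its value without that sample is not given. All 7 epithelial markers had counts in every sample. These ranged from 53252 or more for KRT8 to 26 to 80 for CDH1 and 28 to 54 for PAX2, and CDH1 was called lower at −1.09 on the log2 scale (adjusted p = 0.0011 from edgeR). Of 9 hepatocyte markers, 8 did not reach 10 counts in any sample, ALB had at most 1 count, and the exception was SERPINA1. The summed CPM of these markers was 88.7 to 98.3 in NC and 65.7 to 69.4 in OE, that of 9 proximal tubule markers 2.36 to 3.66 and 1.79 to 2.15, and that of 7 epithelial markers 3609 to 3976 and 2916 to 3186. SERPINA1 made up nearly all of the hepatocyte sum, and KRT8, at 2159 CPM in NC and 1543 in OE, was the largest part of the epithelial sum. Of the 7 epithelial markers, 4 passed towards lower and 1 towards higher, PAX8 (log2 fold change 0.25, adjusted p = 0.00027 from edgeR). KRT18, at 0.02 (adjusted p = 0.75), and PAX2, at −0.32 (adjusted p = 0.33), did not pass. All 3 sums were lower in OE, as FGB was, and the part of these sums in the difference of FGB was not tested.

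The 3 fibrinogen genes lie side by side on chromosome 4. In GENCODE release 44 on GRCh38, FGB (ENSG00000171564.12) runs from 154563011 to 154572807 on the plus strand, FGA (ENSG00000171560.16) from 154583126 to 154590742 on the minus strand, and FGG (ENSG00000171557.17) from 154604134 to 154612967 on the minus strand. The cluster spans 49957 bases, with 10318 bases between FGB and FGA and 13391 between FGA and FGG. The 250 bases before the RefSeq start (GRCh38.p14) of FGB and FGA are shown because these neighbours were counted so unequally, with matches to 6 short motifs in capitals.

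FGB: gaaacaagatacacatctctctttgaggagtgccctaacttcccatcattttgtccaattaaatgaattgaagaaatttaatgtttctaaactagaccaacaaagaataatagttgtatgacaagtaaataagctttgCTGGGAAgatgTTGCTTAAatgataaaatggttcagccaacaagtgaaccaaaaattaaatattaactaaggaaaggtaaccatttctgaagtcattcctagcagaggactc

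FGA: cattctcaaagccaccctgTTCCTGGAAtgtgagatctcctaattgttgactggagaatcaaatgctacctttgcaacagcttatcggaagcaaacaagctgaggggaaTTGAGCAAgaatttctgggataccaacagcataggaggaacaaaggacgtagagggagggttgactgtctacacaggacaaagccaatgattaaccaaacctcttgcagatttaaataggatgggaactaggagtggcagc

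These stretches are chr4:154562730-154562979 on the plus strand for FGB, and chr4:154590743-154590992 on the minus strand for FGA. For FGB, RefSeq lists a second start 31 bases further on, and distances here are from the first. The motifs, searched on both strands, were CTGGGAA (the core of an interleukin 6 response element), TTCNNNGAA (STAT factors), TTGCNNAA (C/EBP factors), TGANTCA (bound by AP-1 factors such as FOS and JUN), the TATA box with the letters TATAAA, and TGATGNAA (a composite of ATF4 and C/EBP). The FGB stretch held CTGGGAA from 112 bases before the start and TTGCTTAA from 101. The FGA stretch held TTCCTGGAA from 231 and TTGAGCAA from 141 bases before the start. The stretch of FGG, which had at most 11 counts in any sample, also held CTGGGAA, from 161 bases before the start. It lies within the GENCODE gene and is not shown. Of 35116 such stretches in the table, CTGGGAA was in 9.15%, TTGCNNAA in 9.05%, TTCNNNGAA in 6.57% and TGATGNAA in 3.14%. These matches describe letters and not binding.

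FGB, which encodes the beta chain, was the fibrinogen gene with counts in every sample, and it was much lower in OE. It had 206, 183 and 197 counts in the NC samples and 33, 34 and 34 in the OE samples, so each OE sample lay far below each NC sample. In CPM, the counts scaled to the size of each library, NC samples had a level of 5.53 ± 0.363 (SD, n = 3), against 0.896 ± 0.0381 (SD, n = 3) for OE. The fitted level was 6.16 times as high in NC as in OE, and the log2 fold change was −2.62 (standard error 0.17). Without any one sample it stayed between −2.66 and −2.57. In bulk RNA, fewer cells that express a gene and less RNA per cell cannot be told apart.

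FGA and FGG, the alpha and gamma chain genes, were close to zero in both groups. FGA had 2, 0 and 5 counts in NC and 2, 0 and 1 in OE. FGG had 0, 4 and 0 counts in NC, all from NC replicate 2, and 1, 11 and 4 in OE. Both failed edgeR's filter on low counts and were not fitted, so 7 of the 9 genes have a fold change. The groups of both genes overlapped, those of FGG only through NC replicate 2. A count of 0 in one of these libraries allows up to 3 counts, or 0.0759 to 0.0862 CPM. In FPKM, which is also scaled to transcript length and so allows genes to be compared, FGB was listed at 1.26, 1.08 and 1.16 in NC and at 0.19, 0.18 and 0.20 in OE. FGA was listed at no more than 0.03 and FGG at no more than 0.07 in any sample, so the beta chain gene stood above both of its partners in every sample, OE included.

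Of the protein-coding genes on either side of the cluster, one was higher in OE and the other overlapped between the groups. PLRG1, a splicing factor gene that starts the other way 12610 bases before FGB, had 1035, 991 and 998 counts in NC and 1636, 1863 and 1607 in OE. It rose by 0.66 on the log2 scale (standard error 0.06), with an adjusted p of 2.9e-08 in edgeR, where p-values were adjusted over all genes fitted. LRAT, a retinol enzyme gene beyond FGG, had 207, 221 and 207 counts in NC and 220, 243 and 187 in OE, and stood at −0.06 on the log2 scale (adjusted p = 0.71). Both genes were added as the flanking genes of the cluster, outside the rule for named genes.

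**Figure D1:**
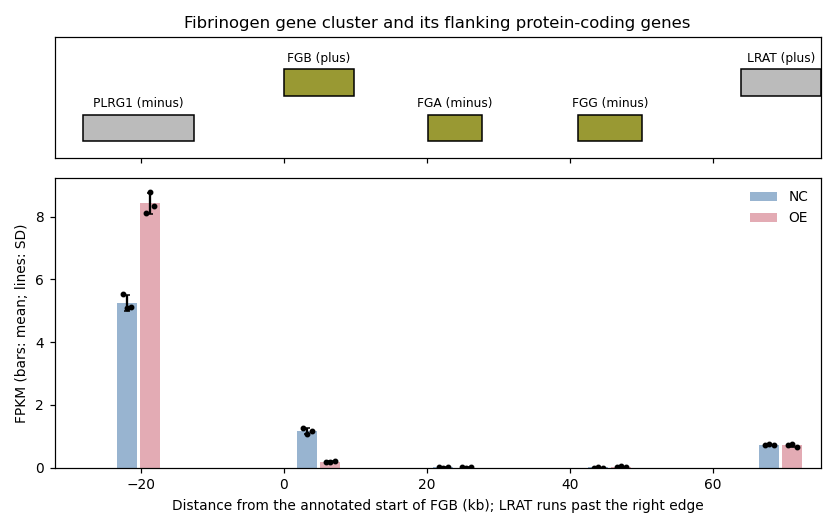
The upper panel draws the fibrinogen genes and both flanking genes by distance from the start of FGB in kb, with their strands, and the lower panel gives FPKM (bars are means of 3 samples, lines SD, points samples). FGB is at 1.17 in NC and 0.190 in OE, FGA and FGG lie at the axis, PLRG1 is higher in OE, and the LRAT samples of the groups overlap.

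The other 6 genes were all well above zero and their groups did not overlap. Of the 7 fitted genes, FGB, F3 and TFPI were lower in OE, and THBD, PLAT, PLAU and PLAUR were higher. FGB alone lay past a fold of 2. Genes outside the set were called when their fold change was over 2 or under 0.5 and their adjusted p was under 0.05, and of all 15878 fitted genes 3.79% met this towards lower and 1.73% towards higher. The CPM ranges of NC and OE were separate in 55.3% of all fitted genes, and in all 7 of the set. Nothing is read from these shares, since the 9 genes were chosen on this contrast.

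**Figure D2:**
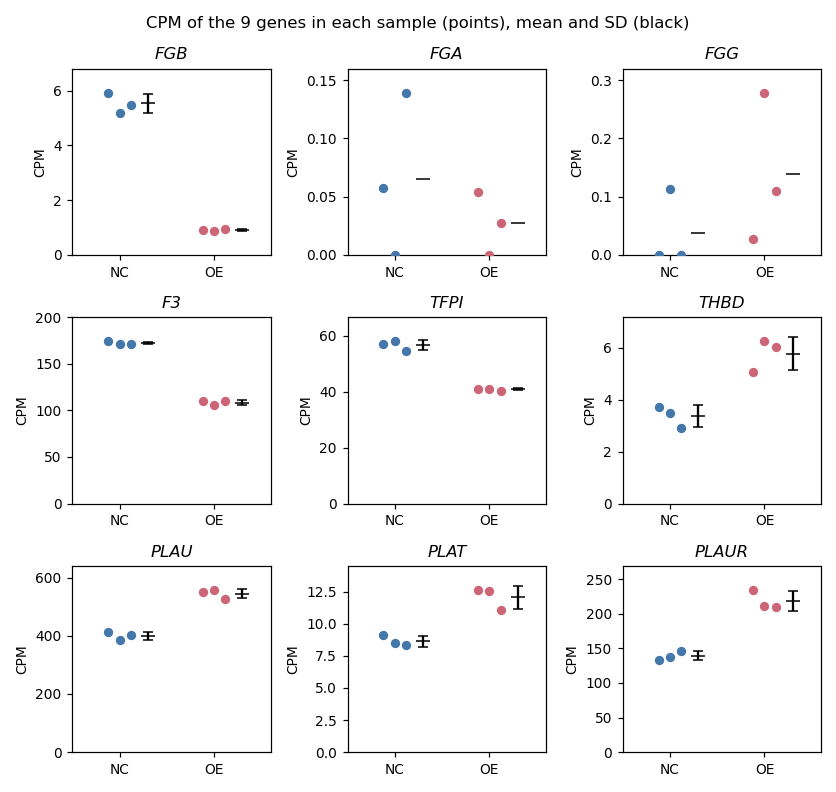
CPM of each of the 9 genes in the 3 NC and 3 OE samples, 1 panel per gene with an axis from 0; points are samples, black marks are means and, except for FGA and FGG, bars are SD. FGB, F3 and TFPI sit lower in every OE sample, THBD, PLAU, PLAT and PLAUR sit higher, and FGA and FGG stay at 0.278 CPM or less with groups that overlap.

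F3 (ENSG00000117525.14, chromosome 1, 94529173 to 94541759, minus strand) encodes tissue factor, the cell surface protein that binds factor VII. Its CPM was 174, 172 and 171 in the NC samples and 110, 106 and 110 in the OE samples. All 3 OE samples were below all NC samples, and the spread within NC was 1.48 CPM (SD, n = 3) around a mean of 172. The log2 fold change was −0.67 (standard error 0.05), which leaves 0.630 of the NC level. Its RefSeq promoter stretch, chr1:94541760-94542009 on the minus strand, carries a pair of AP-1 matches and is shown for that reason. Capitals mark the motif matches.

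F3: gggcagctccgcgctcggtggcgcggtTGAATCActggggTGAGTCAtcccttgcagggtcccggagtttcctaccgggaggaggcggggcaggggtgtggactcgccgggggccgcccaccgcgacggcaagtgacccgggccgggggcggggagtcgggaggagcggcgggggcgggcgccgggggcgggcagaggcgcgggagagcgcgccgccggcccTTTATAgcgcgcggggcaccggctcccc

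The AP-1 match TGAATCA began 223 bases before the start of F3. A second AP-1 match of this stretch, TGAGTCA, began 210 bases before the start. A TATA box on the other strand began 28 bases before it. AP-1 matches were in 6.57% of all 35116 stretches and TATA boxes in 10.7%. The stretch of PLAUR, a gene that was higher in OE, held the AP-1 match TGAGTCA from 186 bases before its start and is not shown.

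TFPI (ENSG00000003436.16, chromosome 2, 187464230 to 187565760, minus strand) encodes an inhibitor of activated factor X and of the complex of tissue factor with activated factor VII. TFPI was lower beside F3. Its CPM was 57.1, 58.0 and 54.5 in NC and 41.1, 41.1 and 40.4 in OE, with no overlap. The log2 fold change was −0.47 (standard error 0.06). In FPKM, F3 exceeded TFPI by a factor of 12.4 ± 0.363 (SD, n = 3) in NC, against 10.8 ± 0.311 (SD, n = 3) for OE, so the initiator stayed about an order of magnitude above its inhibitor in both groups. TFPI overlaps CALCRL-AS1 on the opposite strand, and the strand setting of the counting is not given in the sources used here.

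THBD (ENSG00000178726.7, chromosome 20, 23045633 to 23049672, minus strand) was the least counted of the genes that were higher in OE. It had 130, 123 and 105 counts in NC and 187, 247 and 219 in OE. The lowest OE sample was at 5.06 CPM and the highest NC sample at 3.74 CPM. Its log2 fold change was 0.77 (standard error 0.14), with a range from 0.68 to 0.87 when each sample was left out in turn. THBD is best known from endothelium. The summed CPM of 6 endothelial markers was 8.10 to 9.87 in NC and 9.05 to 9.64 in OE. Of the 4 fitted markers of this list PECAM1 rose, with 46, 54 and 70 counts in NC and 89, 87 and 83 in OE (log2 fold change 0.52, adjusted p = 0.034 from edgeR). CDH5, TIE1 and ERG did not pass, and the part of endothelial signal in the level of THBD was not tested. The summed CPM of 5 platelet markers was 0.824 to 1.18 in NC and 0.798 to 1.03 in OE.

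PLAU (ENSG00000122861.16, chromosome 10, 73909177 to 73917496, plus strand), the urokinase gene, had the highest level of the 9. Its FPKM was 130, 119 and 126 in NC and 172, 177 and 170 in OE, so the highest NC sample was below the lowest OE sample. In CPM the log2 fold change was 0.44 (standard error 0.05), or 1.36 times the NC level. PLAU overlaps C10orf55 on the opposite strand.

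PLAUR (ENSG00000011422.12, chromosome 19, 43646095 to 43670547, minus strand), which holds urokinase at the cell surface, was higher as well. Its CPM was 134, 138 and 147 in NC and 234, 212 and 209 in OE, and every OE sample lay above every NC sample. The log2 fold change was 0.65 (standard error 0.06).

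PLAT (ENSG00000104368.19), the gene of tissue-type plasminogen activator, was far less abundant than PLAU. Its CPM was 9.14, 8.49 and 8.32 in NC and 12.6, 12.6 and 11.04 in OE, again without overlap. The log2 fold change was 0.48 (standard error 0.09). In FPKM, PLAU exceeded PLAT by a factor of 122 ± 4.67 (SD, n = 3) in NC, against 119 ± 5.54 (SD, n = 3) for OE, and these ranges overlapped.

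By FPKM the order in NC was PLAU at 125, F3 at 55.02, PLAUR at 28.8, TFPI at 4.45, FGB at 1.17, PLAT at 1.03 and THBD at 0.773, followed by FGA and FGG. Of these neighbours, FGB and PLAT overlapped between samples, as did FGA and FGG. In OE the order was PLAU at 173, PLAUR at 45.8, F3 at 35.1, TFPI at 3.26, PLAT at 1.45, THBD at 1.34 and FGB at 0.190. PLAT and THBD overlapped in OE. F3 stood above PLAUR in every NC sample, at 54.1 or more against 30.4 or less, and below it in every OE sample, at 36.1 or less against 44.4 or more.

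Other genes of clotting and fibrin breakdown were taken from 6 lists of textbook members, 53 genes in all, of which 30 were fitted. Of these, 16 were lower and 6 higher in OE at an adjusted p under 0.05 in edgeR, and 8 did not pass. The same threshold was passed by 23.7% of all fitted genes towards lower and by 24.9% towards higher. The median log2 fold change was −0.15 over the 30 genes and −0.0032 over all fitted genes. Of the 23 genes not fitted, those with a row, among them F2, F7, F9, F10, PLG, KNG1 and SERPINC1, had at most 20 counts in any sample.

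The list of fibrinolysis enzymes, cofactors and inhibitors leaves out PLAU, PLAT and PLAUR, which were higher in OE. Among its 6 fitted genes, 5 fell and the other was PLGRKT, a plasminogen receptor gene, at 0.20 on the log2 scale (adjusted p = 0.16 from edgeR). SERPINF2, the plasmin inhibitor, fell by 1.40 (standard error 0.19, adjusted p = 3.6e-06), from 102, 141 and 119 counts to 48, 44 and 54. S100A10, whose protein binds plasminogen at the membrane with annexin A2, fell by 0.44 (adjusted p = 1.4e-06), and ENO1, a glycolytic enzyme that also binds plasminogen, fell by 0.31 (adjusted p = 7.1e-05). SERPINE2, an inhibitor of thrombin and plasminogen activators, fell by 0.22 (adjusted p = 0.0015), and ANXA2 was the fifth that fell.

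The ratio of PLAU to its receptor PLAUR in FPKM was lower in OE, going from 4.35 ± 0.280 (SD, n = 3) in NC to 3.78 ± 0.216 (SD, n = 3) in OE. The samples of the groups did not overlap. The ratios given here rest on the contrast by which their genes were chosen and were not tested.

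**Figure D3:**
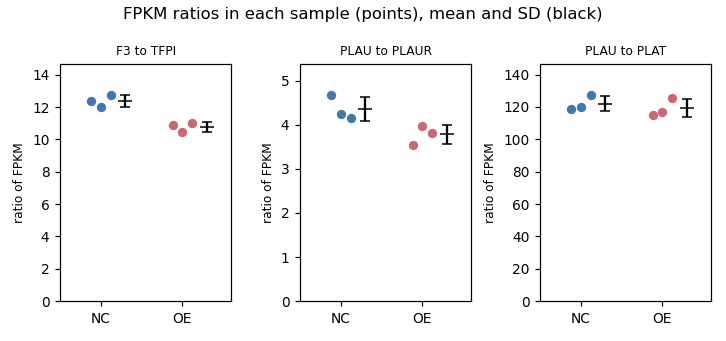
Ratios of FPKM between gene pairs in each sample, on axes from 0; points are samples, black marks are means with SD of 3 samples. F3 to TFPI and PLAU to PLAUR are lower in every OE sample, and PLAU to PLAT overlaps between the groups.

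Of 6 fitted receptors, LRP1, an endocytic receptor for many protease complexes, fell by 0.54 (standard error 0.06, adjusted p = 3.8e-07 from edgeR). PROCR, the receptor of protein C, fell by 0.31 (adjusted p = 0.00038) and F2RL1, a receptor cut by trypsin-like proteases, by 0.28 (adjusted p = 0.0041). The thrombin receptor F2R, at −0.07 (adjusted p = 0.35), and F2RL2, at 0.26 (adjusted p = 0.50), did not pass. F2RL3, a further thrombin receptor, was called higher at 1.93 on the log2 scale (standard error 0.56), with an adjusted p of 0.0072. Its counts were only 20, 0 and 5 in NC and 36, 48 and 19 in OE, so the groups overlapped, and its adjusted p was 0.25 from DESeq2. The log2 fold change of F2RL3 was 3.63 without NC replicate 1 and 1.35 without NC replicate 2.

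Of 4 fitted inhibitors of clotting, 2 rose and 2 fell. TFPI2, a relative of TFPI, rose by 0.41 on the log2 scale (standard error 0.05), with an adjusted p of 2.1e-06 from edgeR, opposite in sign to that of TFPI. ANXA5, which covers membrane phospholipid, had 0.24 (adjusted p = 0.00059). PROC, the precursor of the protein C that THBD helps to activate, fell by 0.73 (standard error 0.09, adjusted p = 8.5e-07), from 498, 465 and 520 counts to 312, 346 and 292. The fourth was PROS1, its cofactor, which fell by less. Of 3 fitted clotting factors, VWF, which carries factor VIII, rose by 0.41 (adjusted p = 0.031) at an FPKM of 0.38 or less in every sample. The adjusted p of VWF was 0.099 without NC replicate 1, 0.065 without NC replicate 2, 0.10 without OE replicate 2, 0.093 without OE replicate 3 and 0.086 from DESeq2. F12 and F8 did not pass, at −0.34 (adjusted p = 0.087, and 0.036 without NC replicate 2) and 0.02 (adjusted p = 0.93).

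Among 5 fitted relatives of fibrinogen and partners of fibrin, THBS1, a matrix and platelet glycoprotein gene, had the smallest p. Its FPKM was 27.2, 27.3 and 26.1 in NC and 13.3, 12.9 and 14.9 in OE. It fell by 0.99 on the log2 scale (standard error 0.05), with an adjusted p of 4.2e-12 from edgeR, just short of the fold threshold. THBS1 was past that threshold and called with upper quartile normalization (−1.03) and with at least 10 counts in every sample (−1.001). The same held without NC replicate 3 (−1.01) and without OE replicate 3 (−1.05). FN1, fibronectin, fell by 0.40 (adjusted p = 6.7e-06), and TGM2, a crosslinking enzyme gene, fell as well. ANGPTL4, with a fibrinogen-like domain, rose by 0.39 (adjusted p = 5.8e-05), and FIBCD1 stood at 0.03 (adjusted p = 0.95). Among 6 fitted genes of the vitamin K cycle and of factor secretion, VKORC1, which recycles vitamin K, fell by 0.89 (standard error 0.20, adjusted p = 0.00083). MCFD2, which helps to carry factors V and VIII, rose by 0.19 (adjusted p = 0.0019). LMAN1, its partner, fell by 0.20 (adjusted p = 0.014), but its groups overlapped. The adjusted p of LMAN1 was 0.074 without NC replicate 1, 0.060 without NC replicate 2, 0.083 without OE replicate 1, 0.11 without OE replicate 2 and 0.12 from limma on log2(FPKM + 1). VKORC1L1 was the third that fell. GGCX, the carboxylase, stood at −0.14 (adjusted p = 0.20) and FURIN at −0.11 (adjusted p = 0.29).

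**Figure D4:**
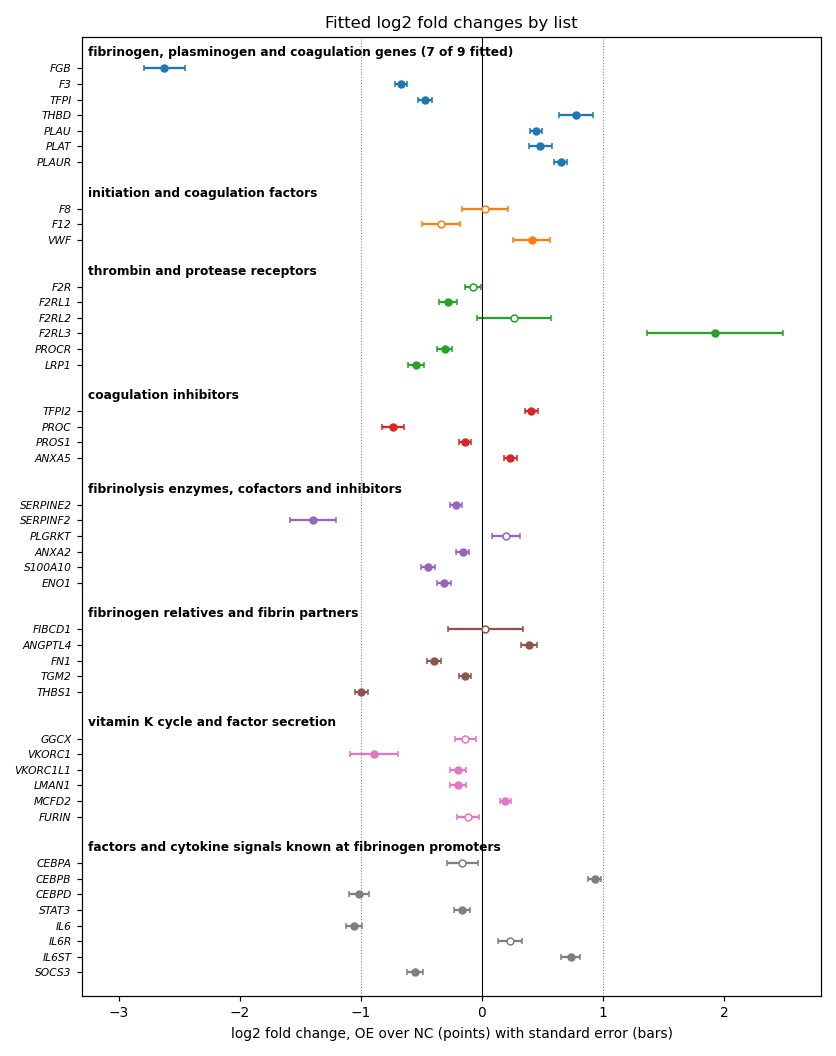
Log2 fold changes of OE over NC (points) with standard errors (bars) for the 7 fitted genes of the set and the fitted genes of each list; hollow points mark list genes with an adjusted p of 0.05 or more, and dotted lines mark a fold of 2. FGB is farthest left at −2.62. In the list of fibrinolysis enzymes, cofactors and inhibitors, all genes but PLGRKT lie left of 0. PLAU, PLAT and PLAUR, which belong to the set, lie right of 0.

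Factors and cytokine signals known at fibrinogen promoters were read from a list of 8 genes, all of which were fitted. At an adjusted p under 0.05, 4 of them fell and 2 rose. IL6, the cytokine that drives fibrinogen synthesis in liver, was called lower, with an FPKM of 26.6, 27.5 and 26.5 in NC and 14.2, 12.4 and 12.8 in OE. Its difference was −1.06 on the log2 scale (standard error 0.07), with an adjusted p of 3.4e-11 from edgeR. CEBPD, a C/EBP factor of the acute phase, was called lower at −1.02 (standard error 0.08, adjusted p = 2.9e-09), and its fold fell short of 2 without NC replicate 3, OE replicate 1 or OE replicate 3, at −0.925, −0.995 and −0.988. SOCS3, a target of this pathway, fell by 0.55 (adjusted p = 8.6e-07 from edgeR). STAT3 fell by 0.16 (adjusted p = 0.044 from edgeR), but its groups overlapped, at 40.9 to 45.1 CPM in NC and 37.0 to 41.5 in OE. By DESeq2, 5 genes of this list passed in place of 6. CEBPB rose by 0.93 (standard error 0.06, adjusted p = 3.1e-11) and IL6ST, the signalling chain of the receptor, by 0.73 (adjusted p = 1.2e-07). IL6R, at 0.23 (adjusted p = 0.054), and CEBPA, at −0.16 (adjusted p = 0.30), did not pass. Whether any of these bears on FGB was not tested.

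The fitted genes closest to FGB in pattern over the 6 samples, by the root mean square difference of log2 CPM after each gene was centred on its own mean, were SLC17A1, FCAMR, TCIM, CTD-3128G10.7 and ITGB6. The differences ran from 0.0980 for SLC17A1, a phosphate transporter gene, to 0.176 for ITGB6, an integrin chain gene. SLC17A1 had 3.42 CPM in NC and 0.586 in OE, and ITGB6 had 9.96 and 1.96. CTD-3128G10.7, a long noncoding RNA gene, overlaps C3 on the same strand, and ITGB6 overlaps ENSG00000285155 on the same strand. How reads of overlapping genes were counted is not given in the sources used here. On log2(FPKM + 1), which compresses low values, none of the 5 was among the closest 5.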

How the data were processed

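RNA of 6 samples of HK-2 cells, 3 NC and 3 OE by their genotype entries, was sequenced from stranded mRNA libraries. The authors trimmed reads with FASTX-Toolkit, used HISAT2 for alignment to GRCh38 and took reads with a single mapping for gene counting, and the deposited counts are not normalized. The deposited FPKM values were computed by the authors from the same reads and are given to 2 decimals. The submitters' processing notes also name mm10. The counting program and annotation are not given in the sources used here. Columns were matched to samples by group and replicate number.

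The 9 genes, the lists and the motifs were chosen with earlier results of these data known. Some list genes and motifs are not reported here, and the counts leave them out. From the counts, edgeR 4.0.16 in R 4.3.3 was run with TMM normalization after filterByExpr and tested by quasi-likelihood, with Benjamini-Hochberg adjustment over 15878 genes. Standard errors are the log2 fold change divided by the root of its F value. Calls needed both a fold change over 2 or under 0.5 and an adjusted p under 0.05, as in the study. CPM uses TMM library sizes, and log2 CPM a prior count of 2. List genes named are those called, up to 3 further that passed with the smallest p, up to 3 that did not pass with the highest FPKM, and others where a count of 5 or fewer is given or a statement needs them. DESeq2 1.42.0 and limma 3.58.1 on FPKM were alternatives, beside other normalizations and filters, the replicate number as a block and each sample left out. The scripts were tested on simulated data. Intervals for low counts cover counting error only. Samples are not stated to come from separate cultures, so p-values measure the spread between these samples. Replicates of a group were not copies, with a mean chi-square per gene of 5.12 to 11.7 between them. The pairs with OE replicate 3 were the highest, at 11.7 and 10.6, and the others ran from 5.12 to 7.13. Without versions, 99.8% of gene identifiers matched GENCODE 44. Promoter sequences are RefSeq's, for 7 of the 9 genes, and those of FGB, FGA and F3, which lie outside the GENCODE genes, are shown. Figures were drawn with matplotlib 3.10.9.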

Additional observations from a re-analysis of the deposited data

How the results depend on the processing

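The direction of the 7 fitted genes was the same under every alternative run. With each sample left out, log2 fold changes ranged from −2.66 to −2.57 for FGB, −0.68 to −0.65 for F3, −0.49 to −0.45 for TFPI, 0.68 to 0.87 for THBD, 0.45 to 0.54 for PLAT, 0.42 to 0.47 for PLAU and 0.60 to 0.69 for PLAUR. On log2(FPKM + 1), which compresses low values, with and without the filter, they were −0.86 for FGB, −0.63 for F3, −0.36 for TFPI, 0.40 for THBD and 0.27 for PLAT, and FGB was at −2.13 on log2(FPKM + 0.1). Upper quartile normalization gave −0.71 for F3 and −0.51 for TFPI.

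Of all genes, 274 were called higher and 601 lower, against totals of 125 by limma on log2(FPKM + 1), 123 without its filter, 569 on log2(FPKM + 0.1) and 186 in a test against a fold of 2. Of the coagulation lists, 2 genes were called, F2RL3 and SERPINF2, against 1 by DESeq2 and 0 by limma on log2(FPKM + 1) with and without the filter, where 17 and 15 had an adjusted p under 0.05. Without one sample the count was 2 to 4, and it was 4 without OE replicate 1, with F2 and VKORC1 added. Of the list of promoter factors and cytokine signals, 2 were called, CEBPD and IL6. This was 0 on log2(FPKM + 1) with and without the filter, 1 on log2(FPKM + 0.1), and 1 to 2 without one sample. The number shared with the 5 genes closest to FGB was 0 on log2(FPKM + 1). Same-numbered samples did not deviate together (correlations −0.0032, −0.066 and −0.054), and a fit with a replicate block called 877 genes, while 19 list genes passed in place of 22. Over PLRG1 and the list genes chosen by the naming rule, 477 values kept their side of the threshold, 28 lost it and 4 gained it, while ANXA2, PROS1, TGM2, VKORC1L1 and STAT3 were not run singly.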

Other observations

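For FGB the coefficient of variation of CPM between samples was 6.57% in NC and 4.25% in OE, where counting alone gives 7.16% and 17.2%. For THBD it was 12.4% and 10.9%, against 9.15% and 6.78% from counting. For PLAU it was 3.42% in NC, against 0.841% from counting. For PLAUR it was 6.30% in OE, against 1.10%. F3 in NC and TFPI in OE varied less than counting gives, at 0.861% against 1.28% and at 0.941% against 2.55%.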
